A study of Mus musculus with 9 samples.

Results

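Aminoacyl-tRNA synthetases, the enzymes that join each amino acid to its tRNA, were followed in TAMH cells, a mouse hepatocyte line, after 9 h with either of 2 viologen herbicides. Genes were chosen by symbol: 1 amino acid letter followed by ars, with or without 1, 2 or l2 at the end, plus Eprs, Farsa and Farsb. Of the 34472 features on the Mouse Gene 2.1 ST array, 36 carried such a symbol alone, and they gave 35 genes of the 22180 genes tested. The mean level over the 9 arrays chose the feature for Nars2, which had more than 1, so that its level is only a description. The cytosolic enzymes are encoded by 19 of these genes and the mitochondrial enzymes by 16. A feature named for the alanine gene Aars together with a neighbour was left out.

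Each group held 3 arrays. Cells were given diquat at 18 µM for 9 h, paraquat at 126 µM for 9 h, or medium alone for 9 h, and all of them were between passages 30 and 40 and grew in medium that held insulin, transferrin, selenium, dexamethasone, nicotinamide and gentamicin. Diquat and paraquat are both bipyridylium salts, with an ethylene bridge between the ring nitrogens in diquat and methyl groups on them in paraquat. The labels name 3 dishes per treatment without saying whether each was a culture of its own, so a p-value reflects only how far these samples differ, a spread that may be technical. TAMH is a single line, derived from mice with a transforming growth factor alpha transgene. Values are log2 levels normalized by the authors. Levels of different genes come from different probes, so the marker levels below only place each gene within the range of the table. A unit of 1 is a doubling, and a change reported below is a difference of means on that scale.

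The table ran from 3.89 to 13.19. Of 8 hepatocyte markers, Alb, Krt8, Krt18, Ttr, Apoa1 and Hnf4a had means of 10.63 to 12.73 over the 9 arrays, while Serpina1a and Cebpa, also on that list, had 7.29 and 7.26. The 4 endothelial markers had means of 5.29 to 6.23, with Stab2 lowest, and the 4 leukocyte markers 5.32 to 7.87, with Ptprc lowest and Cd68 highest. The 4 cholangiocyte markers had means of 7.67 to 10.48, with Sox9 highest, and the 4 stellate and fibroblast markers 5.76 to 9.06, with Col1a1 highest. The mean of 8 hepatocyte markers lay between 10.36 and 10.43 in diquat arrays, between 10.37 and 10.43 in paraquat arrays and between 10.43 and 10.50 in medium arrays, and the part of this in the results below was not tested. In such bulk samples, fewer cells of a type and less RNA per cell cannot be told apart. Diquat replicate 3 lay farthest from its group mates, with a root-mean-square difference of 0.134 against 0.071 to 0.115 for the other arrays.

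As background, cells keep separate sets of synthetases for the cytosol and for mitochondria, all encoded in the nucleus, and Gars and Kars serve both compartments from a single gene. Some cytosolic synthetases sit in a multisynthetase complex held together by scaffold proteins. Synthetases fall into class I and class II by the fold of their catalytic domain. When charged tRNA or amino acids run short, or under other stresses, phosphorylation of the initiation factor eIF2 raises the translation of the transcription factor ATF4, which is known to bind C/EBP-ATF response elements near genes for amino acid synthesis, amino acid transport and cytosolic tRNA charging.

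The core of that element was searched as TGATGNAA on either strand in RefSeq promoter windows of the mouse assembly GRCm38.p6, which run from 250 bases before to 50 after a gene's start. A window was held for 26 of the 35 genes. The match was present in 4 of 12 cytosolic genes (33.3%), Tars, Iars, Yars and Gars, and in 0 of 14 mitochondrial genes, against 4.51% of all 27025 genes with a window. The narrower TGATGCAA, which TGATGNAA contains, was present in 3 of the 12 and in 1.03% of all genes. A match is a description of the letters and not a site of binding, and the search was made with the expression values known. The 4 windows with a match are shown with the match in capitals, read 5′ to 3′ along the strand of the gene, followed by that of the mitochondrial gene Cars2 as an example with no match. They are Tars (chr15:11399609-11399908, minus strand), Iars (chr13:49681880-49682179, plus strand), Yars (chr4:129189653-129189952, plus strand), Gars (chr6:55037751-55038050, plus strand) and Cars2 (chr8:11550722-11551021, minus strand).
Tars: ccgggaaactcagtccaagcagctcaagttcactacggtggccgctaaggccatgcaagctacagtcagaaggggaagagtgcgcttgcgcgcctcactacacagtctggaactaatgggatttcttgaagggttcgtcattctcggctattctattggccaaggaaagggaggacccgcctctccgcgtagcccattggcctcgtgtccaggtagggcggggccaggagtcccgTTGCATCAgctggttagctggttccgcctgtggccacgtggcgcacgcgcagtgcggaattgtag
Iars: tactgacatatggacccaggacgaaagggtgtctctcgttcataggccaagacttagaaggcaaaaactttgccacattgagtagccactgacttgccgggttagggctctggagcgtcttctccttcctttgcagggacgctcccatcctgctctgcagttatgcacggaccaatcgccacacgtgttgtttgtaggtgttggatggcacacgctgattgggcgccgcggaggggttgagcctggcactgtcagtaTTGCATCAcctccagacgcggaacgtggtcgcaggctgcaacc
Yars: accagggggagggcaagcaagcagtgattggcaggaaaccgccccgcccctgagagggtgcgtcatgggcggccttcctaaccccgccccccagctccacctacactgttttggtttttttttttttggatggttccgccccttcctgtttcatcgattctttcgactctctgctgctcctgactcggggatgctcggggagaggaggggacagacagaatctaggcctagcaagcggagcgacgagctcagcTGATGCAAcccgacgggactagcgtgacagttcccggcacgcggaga
Gars: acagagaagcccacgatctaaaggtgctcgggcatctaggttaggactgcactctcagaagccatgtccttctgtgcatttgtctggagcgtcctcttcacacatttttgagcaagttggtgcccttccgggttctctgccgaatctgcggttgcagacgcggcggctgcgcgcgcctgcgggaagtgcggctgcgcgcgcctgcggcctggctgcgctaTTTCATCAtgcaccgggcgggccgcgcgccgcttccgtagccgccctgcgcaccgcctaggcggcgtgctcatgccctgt
Cars2: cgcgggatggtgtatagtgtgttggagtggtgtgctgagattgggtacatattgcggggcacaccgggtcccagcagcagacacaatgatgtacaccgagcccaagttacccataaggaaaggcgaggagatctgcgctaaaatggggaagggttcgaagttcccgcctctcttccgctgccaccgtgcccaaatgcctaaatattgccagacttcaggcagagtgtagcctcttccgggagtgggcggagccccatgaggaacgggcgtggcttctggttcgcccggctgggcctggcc
The match began 15 bases before the start in Tars and 30 before it in Gars, and 7 bases after it in Iars and 3 after it in Yars. Rises and matches overlapped in part, and the overlap was not tested. Tars, Iars, Yars and Gars, the genes with the match, all rose with diquat in the comparison described below. Farsa, Farsb, Kars, Qars and Tarsl2 had a window without the match and did not pass with diquat. Of the 10 cytosolic genes that rose with diquat, described below, 4 had a window with the match, Eprs, Mars1 and Sars had a window without it, and for Cars, Nars and Rars no window was used here. Of the 11 that rose with paraquat, Tars, Iars and Gars had the match, Eprs, Farsb, Mars1 and Sars did not, and for Cars, Lars, Nars and Rars no window was used here. Yars had the match and did not pass with paraquat, and Farsa, Kars, Qars and Tarsl2, without the match, did not pass either. Wars2, a mitochondrial gene that rose with paraquat, had no match.

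The first comparison asked what diquat did to these genes. Of the 19 cytosolic synthetase genes 10 were higher and 0 lower past an adjusted p of 0.05 in limma, where 4.13% of the 22180 genes were higher and 2.89% lower. Of the 16 mitochondrial genes 0 were higher and 2 lower. That made 12 of 35 called in either direction, where 7.02% of all genes were, and 16 of 35 had an unadjusted p under 0.05, where 21.6% of all genes did. The median log2 change was 0.16 over the cytosolic genes and -0.01 over the mitochondrial genes, beside -0.02 over all genes, and the mitochondrial median was 0.02 once each array was centred on its own median. The rises were modest, from 1.12-fold to 1.32-fold. Over the 9 arrays the median level was 10.21 for the cytosolic genes, 7.89 for the mitochondrial genes and 6.42 for all genes. The groups thus differ in signal as well as in compartment. The part of signal level in the shares called, here and with paraquat, and in the partner pairs below was not tested.

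Cars, which charges cysteine, read 10.13, 10.08 and 10.15 in the diquat arrays, against 9.79, 9.68 and 9.70 in the medium arrays. Every diquat array lay above every medium array, and the change was 1.32-fold (log2 0.40 ± 0.04 SE, adjusted p = 0.000364). Tars, which charges threonine, read 10.14, 10.18 and 10.06 with diquat, against 9.70, 9.76 and 9.76 in medium. Again the groups did not overlap, and the change was 1.31-fold (log2 0.39 ± 0.04 SE, adjusted p = 0.000436). Iars, which charges isoleucine, read 10.97, 10.87 and 10.98 with diquat, against 10.65, 10.66 and 10.65 in medium, a 1.22-fold rise (log2 0.29 ± 0.04 SE, adjusted p = 0.0041). Nars, which charges asparagine, read 11.68, 11.66 and 11.67 with diquat, against 11.45, 11.47 and 11.38 in medium, a 1.18-fold rise (log2 0.24 ± 0.04 SE, adjusted p = 0.00431). For these 4 genes the call held without any single array and in 18 of 19 alternative settings, and it was lost for each only when the test asked for a change beyond a fold of 1.2.

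Smaller rises came from genes whose call was less stable. Eprs, the fused enzyme for glutamate and proline, read 10.67, 10.63 and 10.78 with diquat, against 10.56, 10.44 and 10.46 in medium (log2 0.21 ± 0.05 SE, adjusted p = 0.0365). Yars, for tyrosine, read 9.48, 9.37 and 9.47 with diquat, against 9.31, 9.19 and 9.23 in medium (log2 0.20 ± 0.05 SE, adjusted p = 0.0418). The lowest diquat array stood above the highest medium array by a narrow margin in both. Mars1, for methionine, read 9.88, 9.84 and 9.91 with diquat, against 9.72, 9.71 and 9.63 in medium (log2 0.19 ± 0.04 SE, adjusted p = 0.0273). Gars, for glycine, read 11.12, 11.01 and 11.02 with diquat, against 10.86, 10.88 and 10.87 in medium (log2 0.18 ± 0.04 SE, adjusted p = 0.0186). Gars supplies glycyl-tRNA to mitochondria too, so its level bears on both compartments. Rars, for arginine, read 11.14, 11.17 and 11.20 with diquat, against 10.98, 10.98 and 11.01 in medium (log2 0.18 ± 0.03 SE, adjusted p = 0.0122). Sars, for serine, read 10.83, 10.82 and 10.85 with diquat, against 10.63, 10.72 and 10.68 in medium (log2 0.16 ± 0.04 SE, adjusted p = 0.0388). None of these 6 genes had overlapping groups, and each changed by between 1.12-fold and 1.15-fold.

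Those 6 calls depended on single arrays, and some of them on the processing. Fitting every feature ended the calls of Eprs, Sars and Yars (adjusted p = 0.0558, 0.0551 and 0.0632), quantile normalization those of Gars and Sars (log2 0.14 and 0.13, adjusted p = 0.09 and 0.0961), and fitting diquat and medium alone those of Eprs, Gars, Sars and Yars (adjusted p = 0.0582 to 0.0879). Rars was not past the test without medium replicate 1 or 2 (log2 0.18 in each, adjusted p = 0.0534 to 0.0543), and Gars was not without any 1 of the 3 medium arrays (log2 0.18 to 0.19, adjusted p = 0.0583 to 0.0719). Mars1 was lost without any medium array or diquat replicate 1 or 3 (log2 0.16 to 0.21, adjusted p = 0.0595 to 0.0964). Yars was lost without any medium array, diquat replicate 1 or 3 or paraquat replicate 3 (log2 0.17 to 0.23, adjusted p = 0.0518 to 0.16), and Eprs without medium replicate 2 or 3, diquat 1 or 3 or paraquat 2 or 3 (log2 0.16 to 0.22, adjusted p = 0.0525 to 0.144). Sars was lost without any medium or diquat array or paraquat replicate 3 (log2 0.13 to 0.18, adjusted p = 0.0525 to 0.142). The paraquat arrays enter through the shared estimate of the spread. The number of cytosolic genes higher with diquat was accordingly 5, 4 and 5 without medium replicate 1, 2 or 3, 6 without diquat replicate 1 and 6 without replicate 3, the array farthest from its mates. Quantile normalization gave 8, every feature 7, fitting diquat and medium alone 6, and asking for more than a fold of 1.2 gave 0.

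The second comparison asked the same of paraquat. Of the 19 cytosolic genes 11 were higher and 0 lower, where 2.33% of all genes were higher and 2.24% lower, and of the 16 mitochondrial genes 1 was higher and 1 lower. That made 13 of 35 called, where 4.57% of all genes were, and 16 of 35 had an unadjusted p under 0.05, where 15% of all genes did. The median log2 change was 0.18 over the cytosolic genes and 0.00 over the mitochondrial genes, beside 0.00 over all genes. Both comparisons use the same 3 medium arrays.

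Cars read 10.08, 10.11 and 10.05 with paraquat (log2 0.36 ± 0.04 SE, adjusted p = 0.000869), Tars 10.07, 10.04 and 10.11 (log2 0.33 ± 0.04 SE, adjusted p = 0.00148) and Iars 10.86, 10.99 and 10.94 (log2 0.28 ± 0.04 SE, adjusted p = 0.00602), against the medium values above. These were 1.28-fold, 1.26-fold and 1.21-fold rises, with no overlap between paraquat and medium arrays. Mars1 read 9.94, 9.87 and 9.99 with paraquat, against 9.72, 9.71 and 9.63 in medium (log2 0.25 ± 0.04 SE, adjusted p = 0.00958). Lars, which charges leucine, read 9.93, 9.97 and 9.96 with paraquat, against 9.70, 9.78 and 9.67 in medium (log2 0.24 ± 0.04 SE, adjusted p = 0.00681). The calls of these 5 genes held without any single array and were each lost only in the test against a fold of 1.2. With diquat Lars read 9.86, 9.82 and 9.88, also above all 3 medium arrays, at a log2 change of 0.14 ± 0.04 (SE) that did not pass (adjusted p = 0.0669) but did with a trend and robust prior, a filter on dim genes or centring (adjusted p = 0.0441 to 0.0448).

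The remaining 6 rises with paraquat were Eprs (log2 0.23 ± 0.05 SE, adjusted p = 0.0267), Sars (log2 0.20 ± 0.04 SE, adjusted p = 0.0173), Gars (log2 0.19 ± 0.04 SE, adjusted p = 0.0179), Nars (log2 0.19 ± 0.04 SE, adjusted p = 0.0179), Rars (log2 0.18 ± 0.03 SE, adjusted p = 0.0135) and Farsb (log2 0.16 ± 0.04 SE, adjusted p = 0.0368). All 6 had paraquat arrays wholly above the medium arrays. In paraquat replicates 1, 2 and 3, Eprs read 10.67, 10.76 and 10.73, Sars 10.82, 10.91 and 10.89, Gars 11.06, 11.07 and 11.05, Nars 11.60, 11.66 and 11.60, and Rars 11.14, 11.20 and 11.18. Each was again lost without certain arrays: Eprs without medium 2 or 3 or paraquat 2 or 3 (log2 0.21 to 0.23, adjusted p = 0.0959 to 0.12), Sars without medium 1 or 3 or paraquat 2 or 3 (log2 0.17 to 0.20, adjusted p = 0.0559 to 0.0853), and Nars without the same 4 (log2 0.16 to 0.20, adjusted p = 0.051 to 0.0774). Rars was lost without medium 1 or 2 or paraquat 2 or 3 (log2 0.17 to 0.18, adjusted p = 0.0551 to 0.0634), and Gars without any medium or paraquat array (log2 0.19 to 0.20, adjusted p = 0.0522 to 0.0785). Farsb was lost without any medium or paraquat array or diquat replicate 1 (log2 0.14 to 0.18, adjusted p = 0.0506 to 0.153). The call of Farsb also ended with median centring and with every feature fitted (adjusted p = 0.0781 and 0.0528), and that of Gars with quantile normalization (log2 0.17, adjusted p = 0.0607). The number of cytosolic genes higher with paraquat was 6, 7 and 6 without medium replicate 1, 2 or 3, 5 without paraquat replicate 2, 5 without replicate 3, and 0 when a change beyond a fold of 1.2 was asked for.

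**Figure D1:**
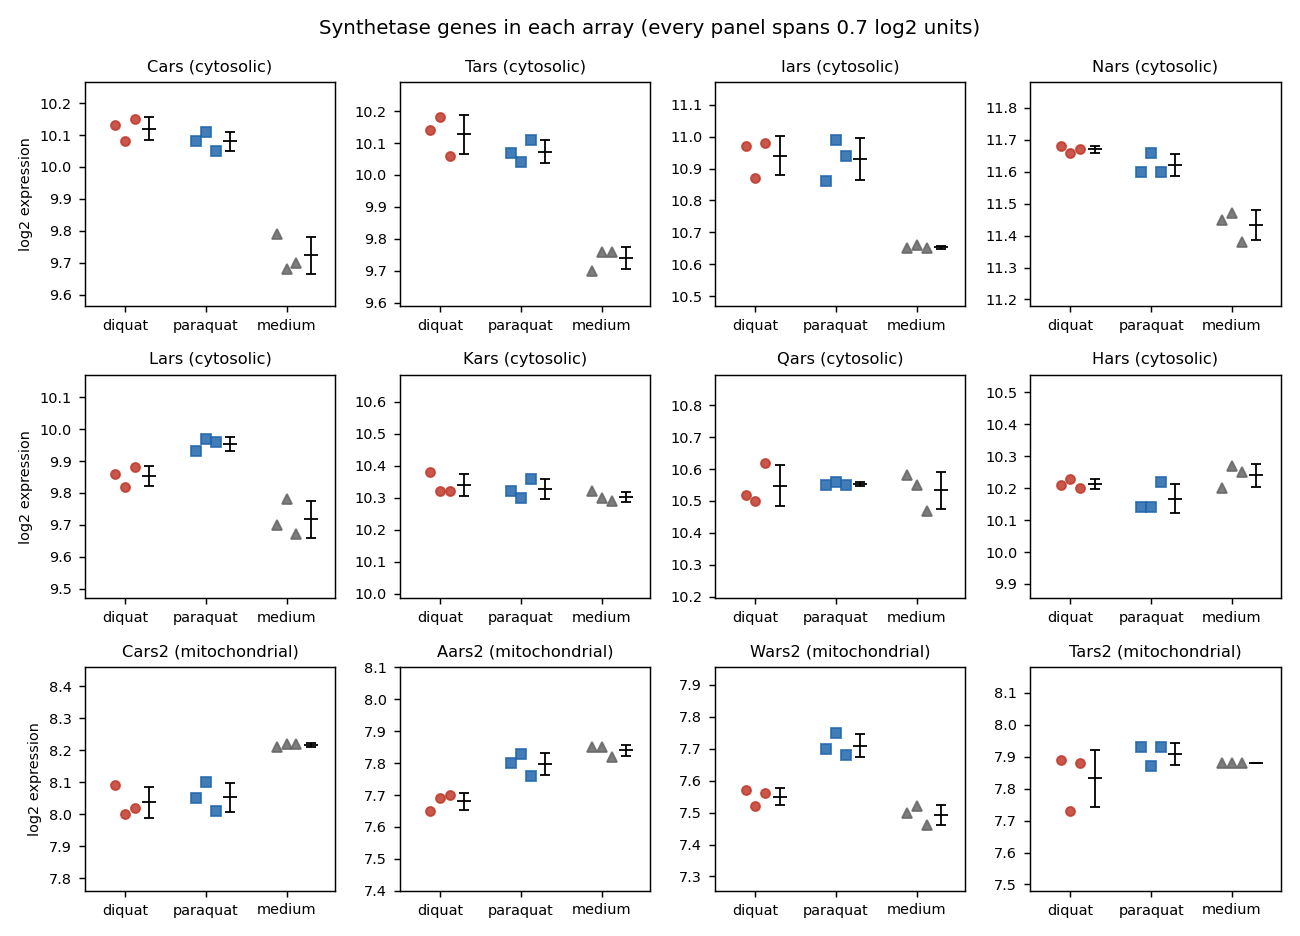
Deposited log2 expression of 12 synthetase genes in each array, with diquat, paraquat and medium from left to right and the mean and standard deviation of the 3 arrays in black beside them. Cars, Tars, Iars and Nars lie above medium in all 6 treated arrays, while Cars2 lies below it in all 6.

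Not every cytosolic gene passed the test with each compound. Qars, for glutamine, read 10.52, 10.50 and 10.62 with diquat, 10.55, 10.56 and 10.55 with paraquat, and 10.58, 10.55 and 10.47 in medium. Vars, for valine, read 10.59, 10.58 and 10.61 with diquat, 10.61, 10.53 and 10.59 with paraquat, and 10.59, 10.59 and 10.52 in medium. Kars, for lysine, read 10.38, 10.32 and 10.32 with diquat, 10.32, 10.30 and 10.36 with paraquat, and 10.32, 10.30 and 10.29 in medium. The groups overlapped for all 3 genes. The 95% intervals of their log2 changes ended at 0.11 for each with diquat and at 0.12, 0.09 and 0.10 with paraquat. These ends lay below the lower bounds of Cars (0.31 and 0.27) and Tars (0.29 and 0.24). They did not lie below those of every called gene, such as Sars with diquat (0.07) and Farsb with paraquat (0.08). Hars, for histidine, had log2 changes of -0.03 ± 0.04 with diquat and -0.07 ± 0.04 with paraquat (SE), neither past the test (adjusted p = 0.725 and 0.412). Wars, for tryptophan, had log2 changes of 0.07 ± 0.06 and 0.16 ± 0.06 (SE) without passing (adjusted p = 0.518 and 0.174), although its 3 paraquat arrays, at 9.90, 9.86 and 10.05, lay above the medium arrays at 9.79, 9.83 and 9.70. Yars with paraquat, at 9.45, 9.32 and 9.39, also lay above medium and had a log2 change of 0.14 ± 0.05 (SE, adjusted p = 0.176).

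Farsa and Farsb encode the alpha and beta subunits of the same cytosolic phenylalanine enzyme. Farsb read 9.81, 9.81 and 9.88 with diquat, 9.85, 9.91 and 9.86 with paraquat, and 9.72, 9.67 and 9.74 in medium, while Farsa read 8.98, 9.01 and 8.98 with diquat, 8.98, 8.88 and 8.98 with paraquat, and 9.00, 8.98 and 8.94 in medium. Treated arrays lay above medium for Farsb and mixed with it for Farsa. The change of Farsb exceeded that of Farsa by 0.19 ± 0.06 with paraquat (SE, 95% interval 0.02 to 0.36; exact two-sided permutation test, p = 0.1, the smallest that 3 against 3 arrays can give) and by 0.11 ± 0.04 with diquat (SE, 95% interval -0.02 to 0.23; exact p = 0.2). Tarsl2, a cytosolic threonine paralog whose name resembles a mitochondrial one, read 8.54, 8.55 and 8.54 with diquat, 8.65, 8.48 and 8.47 with paraquat, and 8.64, 8.60 and 8.67 in medium. Its log2 changes of -0.09 ± 0.05 and -0.10 ± 0.05 (SE) did not pass (adjusted p = 0.312 and 0.375). The change of Tars exceeded that of Tarsl2 by 0.48 ± 0.04 with diquat and 0.44 ± 0.07 with paraquat (SE, exact p = 0.1 in each). After Benjamini-Hochberg adjustment over 28 such tests, which include the partner pairs below, the exact p was 0.187 for Tars with each compound. For Farsb it was 0.187 with paraquat and 0.311 with diquat, so none of these differences passed.

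**Figure D2:**
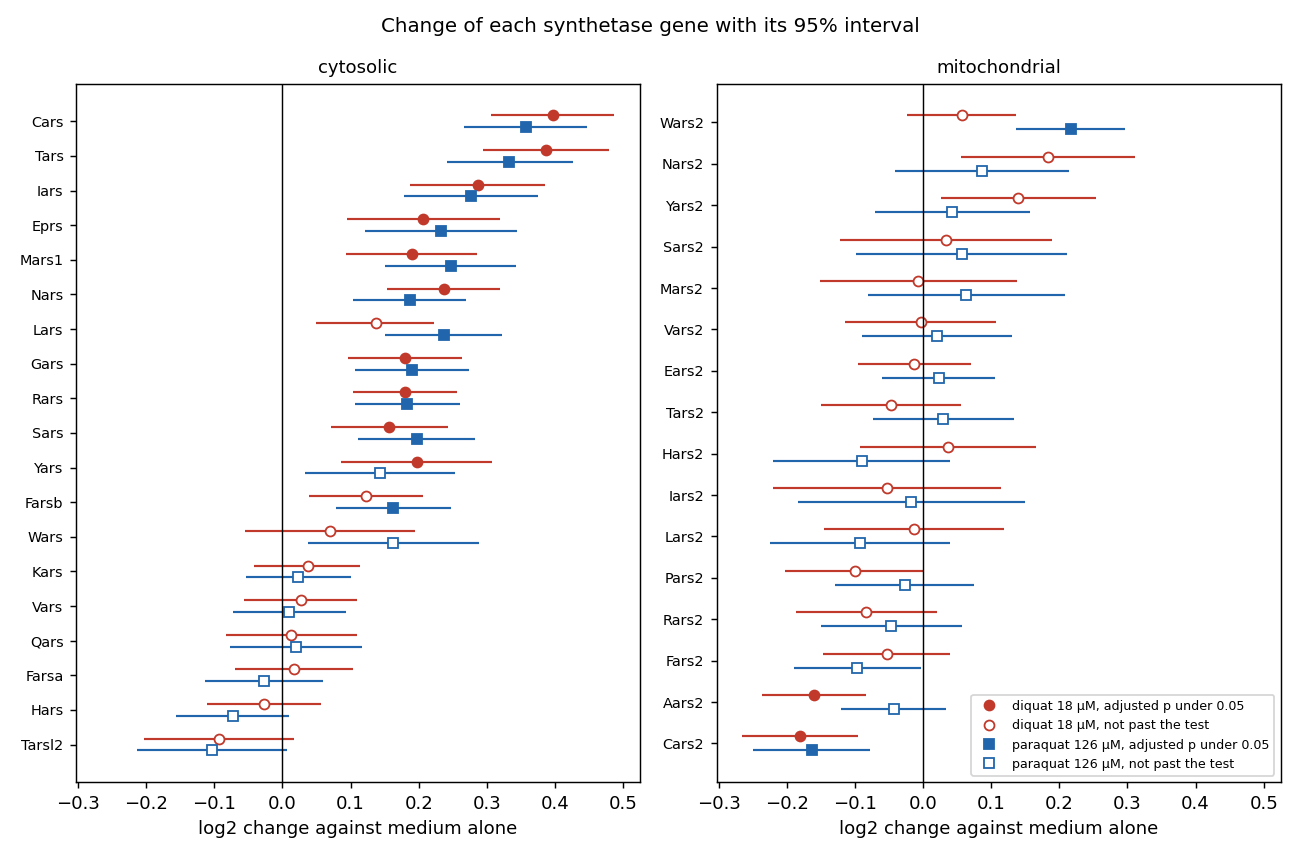
The log2 change of all 35 genes with diquat (red circles) and paraquat (blue squares) against medium alone, with the 95% interval of limma as a line and filled symbols for an adjusted p under 0.05. Filled symbols in the cytosolic panel all lie to the right of 0, from 0.16 to 0.40, and the mitochondrial panel has 4 filled symbols, 3 of them to the left.

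The rises were found inside and outside the multisynthetase complex. Of 7 complex members, Eprs, Iars, Lars, Mars1, Qars, Rars and Kars, 4 rose with diquat and 5 with paraquat, where 4.13% and 2.33% of all genes did, with median log2 changes of 0.18 and 0.23. Of the 12 other cytosolic genes 6 rose with diquat and 6 with paraquat, with medians of 0.14 and 0.16. Of 9 cytosolic class I genes 5 rose with diquat and 5 with paraquat, and of 9 class II genes 4 and 5, leaving Eprs, whose fused enzymes belong to different classes. Those shares of all genes apply to these counts too, and differences between the groupings were not tested.

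Among mitochondrial genes, Cars2, the mitochondrial cysteine enzyme, read 8.09, 8.0 and 8.02 with diquat and 8.05, 8.10 and 8.01 with paraquat, against 8.21, 8.22 and 8.22 in medium. All 6 treated arrays lay below all 3 medium arrays, and the log2 changes were -0.18 ± 0.04 and -0.16 ± 0.04 (SE, adjusted p = 0.0203 and 0.0393), a 1.13-fold fall with diquat and a 1.12-fold fall with paraquat. Aars2, for alanine, read 7.65, 7.69 and 7.70 with diquat, against 7.85, 7.85 and 7.82 in medium, a 1.12-fold fall (log2 -0.16 ± 0.03 SE, adjusted p = 0.0216). With paraquat Aars2 read 7.80, 7.83 and 7.76 and had a log2 change of -0.04 ± 0.03 (SE, adjusted p = 0.68). The feature shared by Aars and its neighbour Exosc6 was left out of the counts. With limma fitted to every feature, its log2 changes were 0.16 and 0.18 with diquat and paraquat (adjusted p = 0.0306 and 0.0204). Its signal cannot be assigned to either gene. Wars2, for tryptophan, read 7.70, 7.75 and 7.68 with paraquat, against 7.50, 7.52 and 7.46 in medium, a 1.16-fold rise (log2 0.22 ± 0.04 SE, adjusted p = 0.00715). With diquat it read 7.57, 7.52 and 7.56, a change of 0.06 ± 0.04 (SE, adjusted p = 0.403).

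The call of Wars2 held without any single array. Those of the mitochondrial falls did not. Cars2 was not past the test with diquat without any 1 medium array (log2 -0.18 in each, adjusted p = 0.0638 to 0.0763), or with paraquat without any medium or paraquat array (log2 -0.19 to -0.14, adjusted p = 0.0544 to 0.154), and Aars2 was not with diquat without medium replicate 1 or 2 or diquat replicate 1 (log2 -0.16 to -0.15, adjusted p = 0.0679 to 0.0845). Centring each array on its median also ended the 3 calls (adjusted p = 0.0628 to 0.0915), with no change of sign, and that of Cars2 with paraquat ended with a trend and robust prior and with every feature fitted too (adjusted p = 0.0507 and 0.0567).

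The other 13 mitochondrial genes passed in neither comparison. They were Ears2, Fars2, Hars2, Iars2, Lars2, Mars2, Nars2, Pars2, Rars2, Sars2, Tars2, Vars2 and Yars2. Over the 14 mitochondrial genes not past the test in each comparison, log2 changes ran from -0.10 to 0.18 with diquat and from -0.10 to 0.09 with paraquat. Nars2, for asparagine, had the largest of these with diquat, reading 8.13, 8.03 and 8.24, against 8.03, 7.87 and 7.95 in medium (log2 0.18 ± 0.06 SE, adjusted p = 0.0934). It passed without diquat replicate 2 (log2 0.24, adjusted p = 0.0329), and the second Nars2 feature, at 6.15, 6.14 and 6.22 with diquat and 6.17, 6.30 and 6.22 in medium, had a log2 change of the other sign, -0.06 ± 0.05 (SE). Yars2, for tyrosine, read 9.35, 9.42 and 9.42 with diquat, just above 9.25, 9.18 and 9.34 in medium, and did not pass (log2 0.14 ± 0.05 SE, adjusted p = 0.147). The diquat arrays of Iars2, for isoleucine, spread most, at 9.28, 9.13 and 9.48, against 9.38, 9.38 and 9.29 in medium.

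Without regard to the test, diquat arrays lay wholly above medium arrays for 12 cytosolic and 1 mitochondrial gene and wholly below for 1 cytosolic and 3 mitochondrial genes, where 10.1% of all genes were wholly above and 11.2% wholly below. Paraquat arrays lay wholly above for 13 cytosolic and 1 mitochondrial gene and wholly below for 0 and 2, where 9.05% and 10.4% of all genes did so.

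The mitochondrial and cytosolic genes for the same amino acid could be set against each other within each array for 12 amino acids. The change of the cytosolic gene exceeded that of its mitochondrial partner in 11 of 12 pairs with diquat and in 10 with paraquat, by a median of 0.14 and 0.16 on the log2 scale. For cysteine the excess was 0.58 ± 0.05 with diquat (SE, 95% interval 0.45 to 0.70) and 0.52 ± 0.04 with paraquat (0.41 to 0.63), since Cars rose and Cars2 fell. For threonine it was 0.43 ± 0.08 (0.20 to 0.67) and 0.30 ± 0.02 (0.24 to 0.37), and for isoleucine 0.34 ± 0.08 (0.12 to 0.56) and 0.29 ± 0.04 (0.18 to 0.41). Leucine, methionine and arginine likewise had partner differences in treated arrays wholly above those in medium arrays with both compounds. In each of these 6 amino acids the exact two-sided permutation p was 0.1, the smallest possible with 3 against 3 arrays. It was 0.187 after Benjamini-Hochberg adjustment over the 28 tests of this kind. The share of other gene pairs with such a difference was not taken. Among single genes, 10.1% lay wholly above medium with diquat and 9.05% with paraquat. The pairs reuse the changes of the cytosolic genes counted above and are not separate support for them.

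For asparagine, histidine, serine, tryptophan, tyrosine and valine the partner difference overlapped between treated and medium arrays. The interval for asparagine with diquat ran from -0.18 to 0.28, as Nars2 moved by 0.18 beside the 0.24 of Nars, and for histidine from -0.30 to 0.17. For tryptophan with paraquat it ran from -0.27 to 0.17, with Wars at 0.16 and Wars2 at 0.22. These widths would not show a difference as small as the changes themselves.

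**Figure D3:**
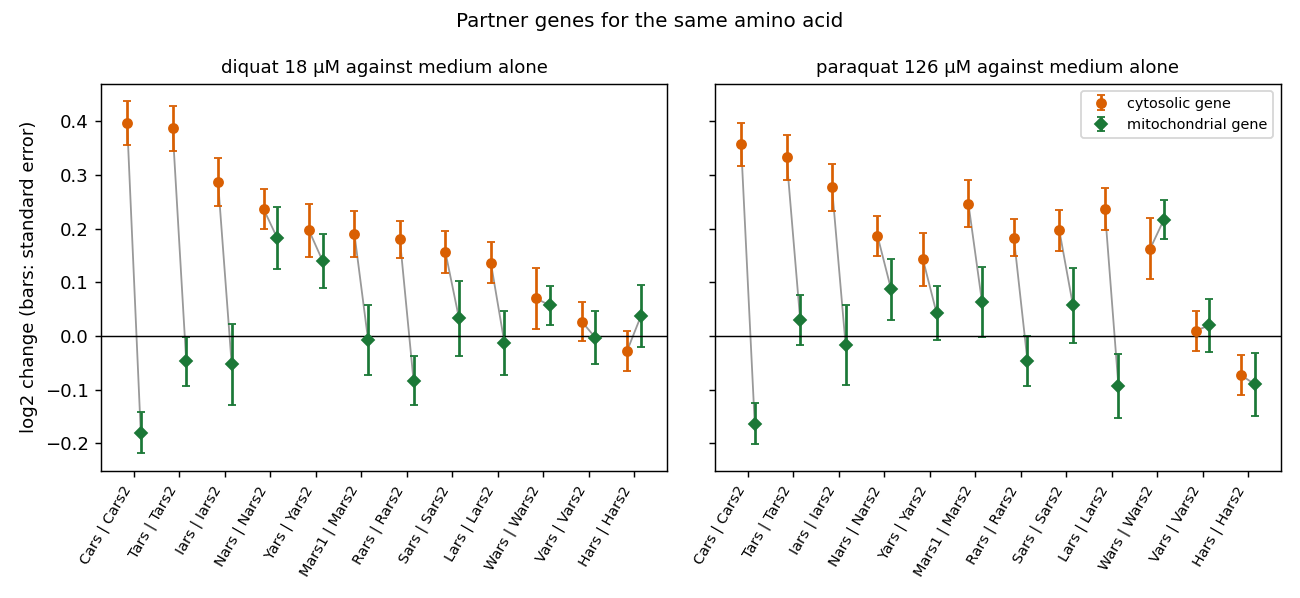
Log2 change against medium alone of the cytosolic gene (orange circles) and the mitochondrial gene (green diamonds) for 12 amino acids, diquat on the left and paraquat on the right, with limma's standard error as bars. The gap is widest for Cars and Cars2, which lie on opposite sides of 0, and close to 0 for Wars and Wars2 with diquat and for Vars and Vars2.

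By array, the median log2 difference of the 19 cytosolic genes from the medium mean was 0.15, 0.13 and 0.17 in the diquat arrays and 0.15, 0.20 and 0.18 in the paraquat arrays, against 0.02, 0.01 and -0.01 in the medium arrays. The corresponding median of the 16 mitochondrial genes was -0.01, -0.05 and 0.05 with diquat, 0.00, 0.00 and 0.01 with paraquat, and 0.02, 0.00 and -0.02 in medium. All 6 treated arrays thus lay above the 3 medium arrays for the cytosolic genes. For the mitochondrial genes, diquat replicate 2 lay below the medium arrays and replicate 3 above them, and the other treated arrays lay within their range. The medium arrays were measured from their own mean, which holds them near 0. The median over all genes stayed between -0.02 and 0.00 in every array.

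**Figure D4:**
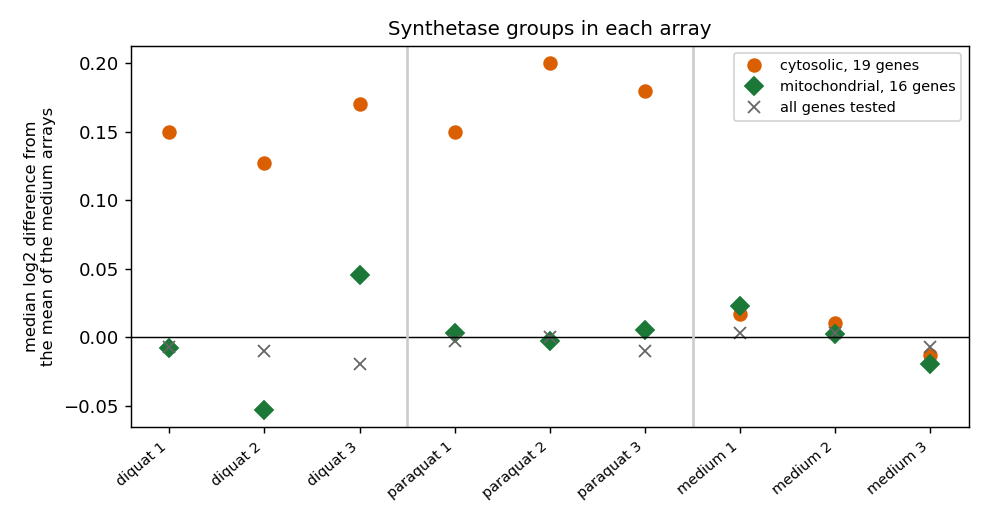
Median log2 difference from the mean of the 3 medium arrays, in each array, over 19 cytosolic genes (orange circles), 16 mitochondrial genes (green diamonds) and all genes tested (grey crosses). Cytosolic medians are 0.13 to 0.20 in treated arrays, while the mitochondrial medians lie between -0.05 and 0.05.

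The third comparison set paraquat against diquat, at doses that differ (126 µM and 18 µM). Of the 35 genes 0 passed limma's adjusted p, as did 0% of all genes, and 3 had an unadjusted p under 0.05, where 10.7% of all genes did. These 3 were Wars2 (7.70, 7.75 and 7.68 with paraquat, against 7.57, 7.52 and 7.56 with diquat; log2 0.16 ± 0.04 SE, adjusted p = 0.313), Aars2 (7.80, 7.83 and 7.76 against 7.65, 7.69 and 7.70; log2 0.12 ± 0.03 SE, adjusted p = 0.363) and Lars (9.93, 9.97 and 9.96 against 9.86, 9.82 and 9.88; log2 0.10 ± 0.04 SE, adjusted p = 0.436). In each the paraquat arrays lay wholly above the diquat arrays, as they did for 5.36% of all genes, and no member had them wholly below, as 5.18% of all genes did. Log2 differences over the cytosolic genes ran from -0.05 to 0.10, with 95% intervals reaching from -0.16 to 0.22, and over the mitochondrial genes from -0.13 to 0.16, with intervals reaching from -0.26 to 0.24. For Cars the interval of paraquat minus diquat was -0.13 to 0.05 and for Tars -0.15 to 0.04. A p that misses the threshold does not show that the compounds act alike on these genes.

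Of 14 further genes of tRNA charging, 12 were measured. With diquat 2 rose and 1 fell, where 4.13% of all genes were higher and 2.89% lower, and with paraquat 2 rose and 0 fell, where 2.33% were higher and 2.24% lower. Their median log2 changes were 0.00 and 0.00, beside -0.02 and 0.00 over all genes. Xpot, the exportin that carries tRNA out of the nucleus, rose with diquat (log2 0.30 ± 0.06 SE, adjusted p = 0.012) and with paraquat (0.34 ± 0.06 SE, adjusted p = 0.00717). Eef1e1, which encodes a scaffold protein of the multisynthetase complex, rose by 0.28 ± 0.05 and 0.22 ± 0.05 (SE, adjusted p = 0.00948 and 0.0372), while Aimp1, another scaffold gene, had log2 changes of -0.03 and -0.01 and did not pass. Dtd2, which removes wrongly attached amino acids from tRNA, fell by 0.22 on the log2 scale with diquat (adjusted p = 0.0279), and with paraquat its change was -0.20 ± 0.05 (SE, adjusted p = 0.0616). The mitochondrial amidotransferase genes Gatb, Gatc and Qrsl1, which complete glutaminyl-tRNA in mitochondria, did not pass in either comparison.

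Of 10 amino acid sensing and ATF4 genes 8 were measured, and 7 rose with diquat and 7 with paraquat, where 4.13% and 2.33% of all genes were higher, with median log2 changes of 0.56 and 0.51. Atf4 itself rose by 0.59 and 0.63 on the log2 scale, its partner gene Cebpg by 0.22 and 0.21, Asns, which makes asparagine, by 0.35 and 0.36, and Impact, an inhibitor of the amino acid sensor GCN2, by 0.53 and 0.39. The changes of Chac1, Trib3 and Ddit3 were larger, at 1.04, 0.82 and 0.80 with diquat and 1.17, 1.09 and 1.09 with paraquat. Eif2ak4, which encodes GCN2, had log2 changes of 0.14 and 0.08 and did not pass. Of 12 translation factor genes 11 were measured and 1, Eif4ebp1, rose with each compound (0.38 and 0.41), beside the same shares of all genes, with list medians of 0.08 and 0.05. Of the others, the elongation factor genes Eef1a1, Eef2 and mitochondrial Tufm had log2 changes of 0.03, 0.08 and -0.08 with diquat and 0.01, 0.06 and -0.08 with paraquat, none past the test.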

How the data were processed

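Expression was measured on Affymetrix Mouse Gene 2.1 ST arrays. The deposited values are log2 levels, made by the authors with Affymetrix Expression Console 1.1 and RMA per the submitters' processing notes. RMA equalizes arrays, so a change shared by most genes would be removed. The RMA settings were not given in the sources used here. No detection calls entered. Precision is limited by the number of arrays.

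Titles gave the groups and replicate numbers. For diquat and paraquat, the descriptions of replicates 2 and 3 carry another number. Features with 1 symbol in the platform annotation were used (23521 of 34472), with the highest mean deciding between features of a gene. All 35 members matched RefSeq by Entrez identifier. The 22180 genes were fitted over 9 arrays by limma 3.58.1 in R 4.3.3 (lmFit, eBayes, a mean for each group, Benjamini-Hochberg over all genes). Errors are limma's standard errors, or for partner differences those of the 6 arrays compared. The fit was tested on simulated data. Members, lists, partner pairs and the promoter motif were chosen with earlier results of these data known. Any member could be named, with values in each array where it passed, and genes of the other lists where they passed. Aimp1, Gatb, Gatc, Qrsl1, Eif2ak4, Eef1a1, Eef2 and Tufm did not pass and were named after their values were seen. The 19 alternatives were the replicate number as a block, a trend with robust prior, leaving out genes under 6, median centring, quantile normalization, fitting only the groups compared, averaging features, keeping every feature, weighting arrays, requiring more than a fold of 1.2, and omitting each array in turn.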

Additional observations from a re-analysis of the deposited data

How the results depend on the processing

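No gene of the 35 that passed the test changed sign under any alternative. Against 12 synthetase genes called with diquat (10 cytosolic higher, 2 mitochondrial lower) and 13 with paraquat (11 cytosolic higher, 1 mitochondrial higher, 1 lower), the test against a fold of 1.2 left 0 in each. Fitting only the groups compared left 6 cytosolic genes higher with diquat. Centring each array on its median left 0 mitochondrial genes lower with diquat and 0 with paraquat, and the mitochondrial fall with paraquat was also 0 with the replicate block, with the trend and robust prior and with all features; the cause was not tested. Leaving out 1 array gave 4 to 12 genes with diquat, of which 4 to 10 cytosolic higher and 0 to 2 mitochondrial lower, and 6 to 13 with paraquat, of which 5 to 11 cytosolic higher and 0 to 1 mitochondrial lower. With the replicate block the counts were 11 with diquat and 10 with paraquat, of which 9 and 9 were cytosolic genes higher; it ended the call of Eprs with each compound (adjusted p = 0.0627 and 0.0537) and those of Farsb and Cars2 with paraquat (0.0695 and 0.0751), and same-numbered arrays share only a number, with correlations of their deviations between -0.192 and 0.198, against -0.331 to 0.284 for other pairs of arrays. Median log2 changes of the cytosolic genes were 0.19 with diquat and 0.18 with paraquat after centring, and 0.13 and 0.17 after quantile normalization. Mitochondrial medians were 0.022 and 0.003 after centring and -0.046 and -0.005 after quantile normalization, against -0.013 and 0.002, so their sign moved with the scaling. Over all genes, 959 passed for diquat with only the groups compared, and 1623 passed for paraquat with array weights, against 1558 and 1014. The test against a fold of 1.2 left 117 and 95, and leaving out 1 array gave 802 to 1908 and 574 to 1197. Between paraquat and diquat 0 of the 35 passed under every alternative, and of all genes up to 4 passed, after the filter on dim genes or quantile normalization. Low values may be background, and none of the 35 genes averaged under 6.67. Without detection calls, whether the lowest of them lay above background was not tested.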
